A study of Mus musculus with 12 samples.

Results

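Cholesterol and fatty acid synthesis genes are described here as 33 genes of the sterol and fatty acid pathways, taken from the 22321 genes that could be tested between groups on the arrays. Among the 22321, a probe without a gene name counts as a gene of its own. A gene was included in the 33 when a non-control probe carried its name or an older name of it in the scanner files, and its brightest probe stood for it. All 33 had a probe, and all 33 passed the filter on dim probes. The starting cells were embryonic stem cells (mESC) of the C57BL/6 strain with an actin-driven eGFP transgene, grown on fibroblast feeders. Step 4 cells were neural precursors kept for 5 days with 10 ng/ml bFGF and N2 supplement. Step 5 cells were differentiated for 7 days without bFGF, with B27 in place of N2 and with 200 µM ascorbic acid. Enriched cells were pulled out magnetically, after removal of dead cells, by an antibody to PSA-NCAM, a polysialylated adhesion molecule on the surface of neuroblasts and young neurons. Control cells were not selected. The groups were therefore step 4 enriched, step 4 control, step 5 enriched and step 5 control, with 3 biological replicates each. On every array the sample (Cy5) was set against a common mESC RNA (Cy3). The labels do not say whether step 5 enriched cells were selected before or after the 7 days. They describe neither a treatment that control cells went through in place of selection nor more than 1 stem cell line.

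Cholesterol is made from acetyl-CoA through mevalonate, squalene and lanosterol. When membranes of the endoplasmic reticulum run low in sterol, SREBP transcription factors are released from the INSIG proteins that hold them there and raise the enzymes of the pathway. SREBP2 mainly serves sterol synthesis and SREBP1 fatty acid synthesis, while oxysterols activate LXR receptors, which raise the sterol exporters as well as SREBP1 and stearoyl-CoA desaturases. The brain makes its own cholesterol, because lipoproteins of the blood do not pass the blood-brain barrier, and growing neurites and glia need large amounts of membrane lipid.

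Each value below is either a log2 ratio of sample to mESC on 1 array or a log2 difference between group means of such ratios. Neither is a level that can be set against another gene's. The labels of the selection were checked on Ncam1, whose log2 difference between enriched and control cells was 1.34 at step 4 and 1.67 at step 5 (limma adjusted p = 0.0371 and 0.0112), and on the polysialyltransferase St8sia2, at 1.37 and 1.28 (limma adjusted p = 0.00468 and 0.00429). Of 8 neural precursor markers, 5 were higher in enriched than in control cells at each step, and of 8 neuronal markers 2 were higher at step 4 and 7 at step 5. Of 6 fibroblast and mesenchyme markers 1 was higher at step 4 and 0 at step 5. The median log2 ratio of these 6 to mESC was 4.63 to 4.97 on step 4 enriched and 2.77 to 4.19 on step 4 control arrays. At step 5 it was 6.38 to 6.77 on enriched and 4.39 to 6.64 on control arrays. The part of these transcripts in the results was not tested. All 8 pluripotency markers were lower in enriched cells at both steps. Their median log2 ratio to mESC lay between -4.61 and -3.56 on the step 4 enriched arrays, against -0.94 to -0.68 on the step 4 control arrays, and between -4.50 and -2.93 on the step 5 enriched arrays, against -0.91 to -0.65 on the step 5 control arrays. In control cells pluripotency transcripts were thus much nearer to the mESC level. In bulk RNA fewer cells of a type and less RNA per cell cannot be told apart. The part of this difference in the results below was not tested. The replicate number of an array is also the number of its slide, and slide 2 was scanned on another day, so slide and replicate cannot be told apart. The slide 2 arrays stood apart in the 5 endoderm and liver markers, whose median log2 ratio was 2.28 in step 4 enriched, 3.75 in step 4 control, 2.28 in step 5 enriched and 4.76 in step 5 control cells there, against -0.02 to 1.72 on the other 8 arrays. Step 5 control replicate 2 also had an astrocyte median of 0.49, against 3.15 and 3.75 in the other step 5 control replicates. Results without slide 2 are given beside the counts, and the part of these differences in the results was not tested. The position on the slide followed the group on every slide, so position and group cannot be told apart either.

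At step 4, lipid synthesis genes were higher in PSA-NCAM enriched than in control cells. Of the 33 genes 19 were higher at a limma adjusted p under 0.05, 0 were lower and 14 did not pass. Among all genes tested 31.2% passed in either direction, 15.0% as higher and 16.1% as lower. The median log2 difference was 0.98 over the 33 genes and 0.01 over all genes. The rises took in 7 of 9 fatty acid genes, 3 of 7 genes of the mevalonate part, 5 of 10 genes from squalene onward and 4 of 7 genes of control, transport and export. The enriched arrays lay above all control arrays for 19 of the 33 genes and below them for 1, against 22.2% and 24.8% of all genes. A lack of overlap between groups was thus common among all genes too. Within slides 1, 2 and 3 the enriched array was above the control array for 28, 30 and 30 of the 33 genes, with medians of 0.52, 1.22 and 1.21. The count fell to 5 without the arrays of slide 2, where 15 calls were lost and Abcg1 passed, to 9 without step 4 control replicate 2 and to 12 without step 4 enriched replicate 3. Scd2, Abca1, Srebf1 and Fasn passed under all 22 alternatives. Among these, Aquantile scaling leaves the ratios as they are, and leaving out a step 5 array leaves the step 4 difference as it is. So do the replicate block, the filter settings and the use of only the arrays compared, where only the p-value can change.

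**Figure D1:**
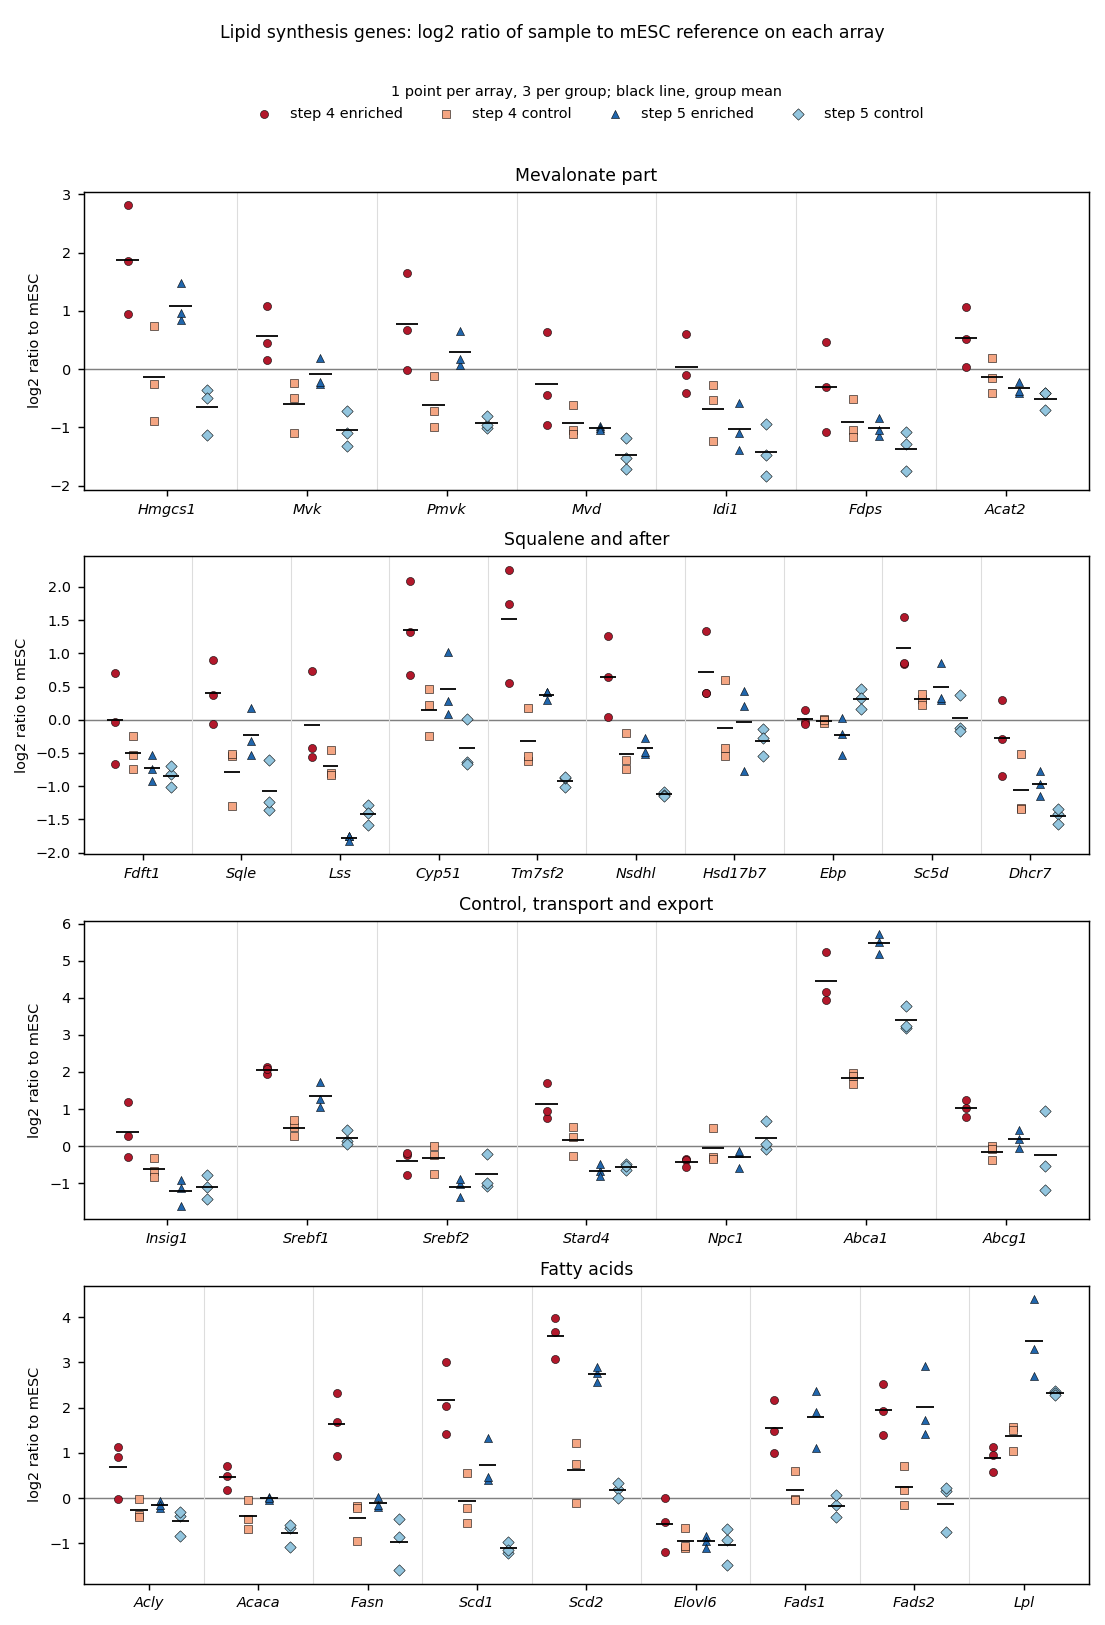
Log2 ratio of sample to mESC reference for the 33 genes, with 1 point per array and a black line at each group's mean, in 4 panels by role. Step 4 enriched points lie highest for most genes, while Abca1, Lpl, Fads1 and Fads2 have their highest group mean in step 5 enriched cells. Lss and Insig1 are among several genes, such as Mvd, Idi1, Fdps and Dhcr7, that lie low at step 5 in both kinds of cell.

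At step 5 fewer of the 33 genes passed the threshold than at step 4, though the enrichment effects were not shown to differ between steps. In enriched cells 13 were higher than in control cells, Ebp was lower and 19 did not pass, while 40.4% of all genes passed, 20.3% as higher and 20.1% as lower. In either direction the 33 genes thus passed about as often as all genes, but mostly as higher. The median log2 difference was 0.48 over the 33 genes and -0.01 over all genes. Fatty acid genes again made up the largest group of those that rose, with 6 of 9, beside 3 of 7 in the mevalonate part, 2 of 10 from squalene onward and 2 of 7 in control, transport and export. The enriched arrays lay above all control arrays for 20 of the 33 genes and below them for 3, against 25.6% of all genes each way. Within slides 1, 2 and 3 the enriched array was above the control array for 28, 24 and 26 of the 33 genes, with medians of 0.70, 0.76 and 0.48. The count of 14 fell to 7 without the arrays of slide 2, where 8 calls were lost and Abcg1 passed. In the same comparison 5 of 6 astrocyte markers and 4 of 6 oligodendrocyte markers were higher in enriched cells. The astrocyte median lay between 4.68 and 5.55 on the step 5 enriched arrays, against 0.49 to 3.75 on the step 5 control arrays, and the oligodendrocyte median between 2.17 and 2.54, against -0.20 to 1.19. Their part in the result was not tested. Srebf1, Abca1, Scd1, Scd2 and Fads2 passed under all 22 alternatives. The same settings as at step 4, with step 4 arrays left out in place of step 5 arrays, leave the step 5 difference as it is.

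**Figure D2:**
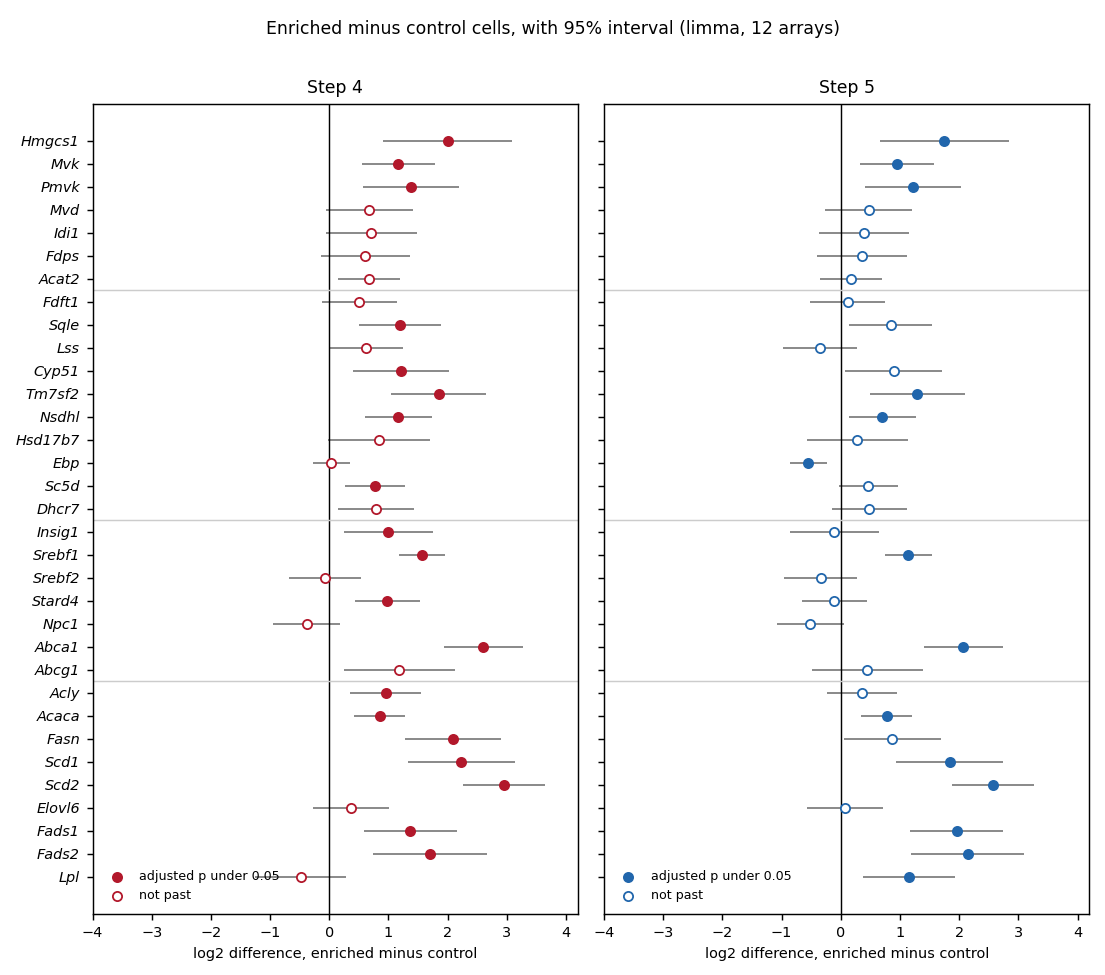
Log2 difference between enriched and control cells at step 4 (left) and step 5 (right) for the 33 genes, with 95% intervals from limma. Filled points passed an adjusted p of 0.05. They number 19 at step 4, all to the right of 0, and 14 at step 5, where Ebp alone lies to the left.

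Promoter sequences were available in the RefSeq table (GRCm38.p6) for 23 of the 33 genes, 3 of them with several start sites, which gave 28 promoters. The 250 bases before the start were searched on both strands. An exact match to TCACNCCAC, a form of the sterol regulatory element bound by SREBP, was in the promoter of Hmgcs1 alone, against 1.05% of all 32851 promoters. Sterol elements with other letters, or outside the 250 bases, were not searched, so the other promoters are not shown to lack one. The letters CCAAT, which the SREBP partner NF-Y binds, were in 18 of the 28 member promoters (17 genes), against 33.8% of all promoters, and GGGCGG, the box of the partner Sp1, in 21 (19 genes), against 32.7%. The E-box CACGTG was in 5 of the 28, against 6.02%. A match describes the letters only. The following lines give, each 5′ to 3′ on the gene's own strand, the promoters of a mevalonate enzyme and a sterol reductase higher in enriched cells at both steps, of the SREBP-holding protein and the fatty acid synthase higher at step 4 and not past the threshold at step 5, and of the exporter with the largest change in its group. Capitals mark every match to these 4 motifs in either direction; in Fasn a pair of CCAAT matches on opposite strands overlap.
Hmgcs1 (GRCm38.p6 chr13:119690101-119690350, plus strand): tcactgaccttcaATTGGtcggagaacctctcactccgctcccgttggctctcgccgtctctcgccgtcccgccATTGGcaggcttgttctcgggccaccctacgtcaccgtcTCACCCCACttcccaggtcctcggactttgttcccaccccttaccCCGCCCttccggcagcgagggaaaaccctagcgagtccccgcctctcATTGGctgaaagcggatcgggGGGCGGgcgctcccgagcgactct
Tm7sf2 (GRCm38.p6 chr19:6067851-6068100, minus strand): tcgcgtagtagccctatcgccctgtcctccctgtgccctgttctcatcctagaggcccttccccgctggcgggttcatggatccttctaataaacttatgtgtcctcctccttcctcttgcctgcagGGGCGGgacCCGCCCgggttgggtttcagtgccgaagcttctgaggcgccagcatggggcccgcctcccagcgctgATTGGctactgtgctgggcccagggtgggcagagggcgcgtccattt
Insig1 (GRCm38.p6 chr5:28071162-28071411, plus strand): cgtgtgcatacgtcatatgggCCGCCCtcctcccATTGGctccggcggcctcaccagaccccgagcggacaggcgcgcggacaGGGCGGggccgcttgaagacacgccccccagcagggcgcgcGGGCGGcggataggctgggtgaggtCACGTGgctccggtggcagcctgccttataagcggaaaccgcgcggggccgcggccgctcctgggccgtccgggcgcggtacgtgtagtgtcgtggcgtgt
Fasn (GRCm38.p6 chr11:120824548-120824797, minus strand): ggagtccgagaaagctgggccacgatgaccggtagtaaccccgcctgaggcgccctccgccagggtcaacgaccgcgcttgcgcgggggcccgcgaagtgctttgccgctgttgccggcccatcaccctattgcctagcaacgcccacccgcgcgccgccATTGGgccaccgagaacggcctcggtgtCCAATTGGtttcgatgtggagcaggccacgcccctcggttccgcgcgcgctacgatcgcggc
Abca1 (GRCm38.p6 chr4:53159896-53160145, minus strand): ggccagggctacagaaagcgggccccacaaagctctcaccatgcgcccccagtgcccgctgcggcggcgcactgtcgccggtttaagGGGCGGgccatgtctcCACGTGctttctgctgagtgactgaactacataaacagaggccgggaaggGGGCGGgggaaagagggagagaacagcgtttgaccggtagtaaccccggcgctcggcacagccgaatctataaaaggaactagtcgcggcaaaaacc

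The mevalonate part was led by Hmgcs1, the cytosolic HMG-CoA synthase, which works just before the mevalonate-making step. Its log2 ratio was 0.94, 1.86 and 2.81 on the step 4 enriched arrays, against -0.25, -0.89 and 0.75 on the step 4 control arrays. The step 5 enriched arrays gave 1.48, 0.84 and 0.96, against -0.35, -1.12 and -0.49 on the step 5 control arrays. The groups did not overlap at either step, and the log2 difference was 2.00 at step 4 (SE 0.49, limma adjusted p = 0.0125) and 1.75 at step 5 (SE 0.49, limma adjusted p = 0.0170). Pmvk and Mvk, the kinases that add phosphate to mevalonate, followed. Pmvk had -0.02, 0.68 and 1.65 in step 4 enriched cells, against -0.996, -0.72 and -0.12 in step 4 control cells, and 0.65, 0.07 and 0.17 in step 5 enriched cells, against -1.004, -0.95 and -0.80 in step 5 control cells. Mvk had 0.16, 0.44 and 1.08 in step 4 enriched cells, against -0.50, -1.09 and -0.23 in step 4 control cells, and 0.20, -0.25 and -0.21 in step 5 enriched cells, against -0.71, -1.31 and -1.10 in step 5 control cells. For both kinases every enriched array lay above every control array of its step. The differences were 1.38 and 1.22 for Pmvk (limma adjusted p = 0.0179 and 0.0235) and 1.17 and 0.95 for Mvk (limma adjusted p = 0.0113 and 0.0208). The first enzyme of this stretch and its last 3 did not pass at either step: Acat2, the cytosolic thiolase that makes the substrate of Hmgcs1, Mvd, the decarboxylase, Idi1, the isomerase, and Fdps, the farnesyl diphosphate synthase, had step 4 differences between 0.60 and 0.71 and step 5 differences between 0.18 and 0.47. Acat2 passed at step 4 with the slides as a block (limma adjusted p = 0.0216, against 0.0549 without, and 0.0109 to 0.324 over all alternatives). Hmgcs1 lost its step 4 call without step 4 control replicate 2, and Pmvk without step 4 control replicate 1 or 2; at step 5 Hmgcs1 and Pmvk lost theirs without step 5 enriched replicate 1 or step 5 control replicate 2, Pmvk also without step 5 control replicate 1, and Mvk without step 5 enriched replicate 1 or step 5 control replicate 2 or 3. Over all alternatives the step 4 and step 5 differences stayed within 1.53 to 2.46 and 1.51 to 1.90 for Hmgcs1, 0.94 to 1.78 and 1.04 to 1.33 for Pmvk, and 0.91 to 1.37 and 0.81 to 1.12 for Mvk.

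From squalene onward, Tm7sf2, a reductase of the sterol ring, differed most. It had log2 ratios of 0.55, 1.75 and 2.26 in step 4 enriched cells, against -0.61, -0.54 and 0.18 in step 4 control cells, and of 0.30, 0.42 and 0.42 in step 5 enriched cells, against -1.01, -0.87 and -0.87 in step 5 control cells. The enriched arrays lay above all control arrays at both steps, with differences of 1.85 (SE 0.36, limma adjusted p = 0.00452) and 1.29 (SE 0.36, limma adjusted p = 0.0164). Without the arrays of slide 2 neither call held (1.62 and 1.29, limma adjusted p = 0.101 and 0.127). Nsdhl, which works in removing methyl groups from the sterol ring, had 0.05, 0.64 and 1.26 in step 4 enriched cells, against -0.61, -0.74 and -0.20 in step 4 control cells, and -0.28, -0.51 and -0.48 in step 5 enriched cells, against -1.09, -1.13 and -1.15 in step 5 control cells. Its groups were apart at both steps, and its differences were 1.16 and 0.70 (limma adjusted p = 0.00764 and 0.0494). The step 5 call of Nsdhl held under 10 of 22 alternatives, over all of which its difference ran from 0.54 to 0.98. Leaving out any 1 of 9 arrays ended it, the exceptions being step 4 enriched replicates 1 and 3 and step 4 control replicate 3.

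Sqle, the squalene epoxidase that is one of the controlled steps of the pathway, and Cyp51, the lanosterol demethylase, rose at step 4. Sqle had -0.06, 0.38 and 0.90 in step 4 enriched cells, against -0.55, -1.30 and -0.52 in step 4 control cells (difference 1.19, SE 0.31, limma adjusted p = 0.0169). Cyp51 had 0.67, 1.32 and 2.08 in step 4 enriched cells, against 0.22, -0.24 and 0.47 in step 4 control cells (difference 1.21, SE 0.37, limma adjusted p = 0.0306). In neither gene did the step 4 groups overlap. Their step 5 differences were 0.84 and 0.89 (limma adjusted p = 0.0544 and 0.0778), and that of Sqle passed with the slides as a block (limma adjusted p = 0.0490; 0.0274 to 0.212 over all alternatives). Without step 4 enriched replicate 3 or step 4 control replicate 2 neither gene passed at step 4, and Cyp51 did not pass without step 4 enriched replicate 2 or step 4 control replicate 1 either. Sc5d, a sterol desaturase, was 0.77 higher at step 4 (limma adjusted p = 0.0266) and 0.46 at step 5 (limma adjusted p = 0.129), and lost the step 4 call without step 4 enriched replicate 3 or step 4 control replicate 1 or 2. Over all alternatives the step 4 difference stayed within 0.94 to 1.43 for Sqle, 0.85 to 1.56 for Cyp51 and 0.54 to 0.93 for Sc5d.

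The other enzymes of this stretch did not pass at step 4. Fdft1, the squalene synthase, Lss, the lanosterol synthase, Hsd17b7, a sterol ketone reductase, and Dhcr7, the last reductase before cholesterol, had differences from 0.50 to 0.84. With the slides as a block Hsd17b7 and Dhcr7 passed (limma adjusted p = 0.0283 and 0.0375, against 0.126 and 0.0617 without; 0.0283 to 0.368 and 0.0163 to 0.340 over all alternatives). Ebp, a sterol isomerase, was the only gene of the 33 that passed as lower in either enrichment comparison. Its log2 ratio was -0.03, 0.14 and -0.06 in step 4 enriched cells, against 0.01, -0.04 and -0.01 in step 4 control cells, all close to the mESC level. In step 5 enriched cells it was -0.21, 0.03 and -0.52, against 0.47, 0.32 and 0.16 in step 5 control cells. The step 5 enriched arrays lay below the control arrays, with a difference of -0.55 (SE 0.14, limma adjusted p = 0.0111). The call was lost with each array centred on its median (-0.42, limma adjusted p = 0.0977) and with only the arrays of the groups compared (-0.55), and held under the other 20 of 22 alternatives. The step 5 enriched arrays of Lss also lay below the step 5 control arrays, by -0.35, without passing (limma adjusted p = 0.355).

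Among genes of control, transport and export, Abca1, the pump that loads cholesterol onto apolipoproteins, differed most. Its log2 ratio was 5.22, 4.15 and 3.95 in step 4 enriched cells, against 1.96, 1.89 and 1.66 in step 4 control cells, and 5.71, 5.51 and 5.19 in step 5 enriched cells, against 3.19, 3.25 and 3.77 in step 5 control cells. Every array was above the mESC level, and every enriched array was above every control array. The differences were 2.60 at step 4 (SE 0.30, limma adjusted p = 0.000354) and 2.07 at step 5 (SE 0.30, limma adjusted p = 0.000592), 6.07-fold and 4.19-fold. Abcg1, another sterol exporter, had a step 4 difference of 1.18 that did not pass (limma adjusted p = 0.0562) and that passed with the slides as a block (limma adjusted p = 0.0253; 0.00265 to 0.152 over all alternatives), and 0.45 at step 5.

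Srebf1, which encodes SREBP1, had replicate values that lay close together at step 4. Its log2 ratio was 2.14, 1.95 and 2.09 in step 4 enriched cells, against 0.51, 0.28 and 0.69 in step 4 control cells, and 1.72, 1.27 and 1.07 in step 5 enriched cells, against 0.14, 0.43 and 0.07 in step 5 control cells. The groups were well apart, with differences of 1.57 (SE 0.18, limma adjusted p = 0.000312) and 1.14 (SE 0.18, limma adjusted p = 0.000859). Which SREBP1 isoforms the probe reads was not examined. Srebf2, which encodes SREBP2, had -0.79, -0.23 and -0.18 in step 4 enriched cells, against -0.75, 0.00 and -0.24 in step 4 control cells, and -1.01, -0.90 and -1.37 in step 5 enriched cells, against -1.07, -0.20 and -0.98 in step 5 control cells. These groups overlapped, and the differences of -0.07 and -0.34 did not pass (limma adjusted p = 0.865 and 0.359; 95% intervals -0.69 to 0.54 and -0.95 to 0.27). Both array probes for Srebf2 gave values at or below 0, the second -0.52 and -0.80.

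Insig1, which holds SREBP in the endoplasmic reticulum and is itself an SREBP target, and Stard4, a sterol carrier of the cytosol, were higher in enriched cells at step 4 and not at step 5. Insig1 had -0.30, 0.28 and 1.19 in step 4 enriched cells, against -0.67, -0.84 and -0.32 in step 4 control cells, and -1.12, -0.91 and -1.60 in step 5 enriched cells, against -1.10, -0.78 and -1.42 in step 5 control cells. The step 4 difference of 0.99 was just past the threshold (SE 0.34, limma adjusted p = 0.0479) and was not past it with the slides as a block (limma adjusted p = 0.0545; 0.0117 to 0.238 over all alternatives). It held under 7 of 22 alternatives, and 10 of the 12 left-out arrays ended it, all except step 4 enriched replicate 1 and step 5 control replicate 2, with the difference between 0.59 and 1.34 over all alternatives. Stard4 had 0.76, 0.96 and 1.72 in step 4 enriched cells, against 0.25, -0.26 and 0.51 in step 4 control cells, and -0.67, -0.82 and -0.49 in step 5 enriched cells, against -0.49, -0.64 and -0.52 in step 5 control cells. Its differences were 0.98 (limma adjusted p = 0.0143) and -0.11 (limma adjusted p = 0.764), and the step 4 call was lost without step 4 control replicate 2 (0.59 to 1.17 over all alternatives). A second Stard4 probe gave 0.20 at step 4. Npc1, which moves cholesterol out of lysosomes, did not pass, at -0.38 and -0.52 (limma adjusted p at step 5 = 0.132), although its enriched arrays lay below its control arrays at both steps.

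Among fatty acid genes Scd2, a stearoyl-CoA desaturase abundant in brain, had the largest difference of the 33 at both steps. It had log2 ratios of 3.08, 3.67 and 3.98 in step 4 enriched cells, against 0.76, -0.10 and 1.22 in step 4 control cells, and 2.77, 2.57 and 2.90 in step 5 enriched cells, against 0.20, 0.01 and 0.33 in step 5 control cells. The gap between groups exceeded the spread within any of them, with differences of 2.95 (SE 0.31, limma adjusted p = 0.000227) and 2.57 (SE 0.31, limma adjusted p = 0.000241), 7.74-fold and 5.92-fold. Its relative Scd1 had 1.43, 2.05 and 3.01 in step 4 enriched cells, against -0.21, -0.56 and 0.57 in step 4 control cells, and 1.32, 0.40 and 0.47 in step 5 enriched cells, against -1.21, -0.97 and -1.14 in step 5 control cells. Scd1 was apart at both steps too, by 2.23 and 1.84 (limma adjusted p = 0.00318 and 0.00533). The 60-base probes of Scd1 and Scd2 share no run of bases longer than 6.

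Fads2 and Fads1 encode the desaturases that make polyunsaturated fatty acids. Fads2 had 1.40, 1.92 and 2.52 in step 4 enriched cells, against 0.19, -0.15 and 0.71 in step 4 control cells, and 1.41, 1.74 and 2.91 in step 5 enriched cells, against 0.15, -0.75 and 0.23 in step 5 control cells. The differences were 1.70 and 2.14 for Fads2 (limma adjusted p = 0.0149 and 0.00332) and 1.37 and 1.96 for Fads1 (limma adjusted p = 0.0156 and 0.00190), with no overlap of groups in either gene. Without step 4 enriched replicate 3 or step 4 control replicate 2 neither gene passed at step 4, nor did Fads1 without step 4 control replicate 1; the step 4 differences stayed within 1.06 to 1.64 for Fads1 and 1.35 to 1.97 for Fads2 over all alternatives. The second Fads2 probe gave 1.00 and 1.09.

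Fasn, the fatty acid synthase, had 0.93, 1.68 and 2.32 in step 4 enriched cells, against -0.17, -0.95 and -0.22 in step 4 control cells, and 0.03, -0.19 and -0.15 in step 5 enriched cells, against -0.46, -1.59 and -0.86 in step 5 control cells. Its groups were apart at both steps, and the difference passed at step 4 (2.09, SE 0.37, limma adjusted p = 0.00274) and did not at step 5 (0.87, SE 0.37, limma adjusted p = 0.0856). Acaca, the carboxylase that makes malonyl-CoA, was higher by 0.85 and 0.77 (limma adjusted p = 0.00928 and 0.0101). Without the arrays of slide 2 neither call of Acaca held (0.69 and 0.64, limma adjusted p = 0.0902 and 0.0780). Acly, which makes cytosolic acetyl-CoA from citrate, was higher by 0.95 at step 4 (limma adjusted p = 0.0223), where the groups touched, and by 0.36 at step 5 (limma adjusted p = 0.321). The call of Acly was lost without step 4 enriched replicate 2 or 3 or step 4 control replicate 1 or 2 (0.52 to 1.30 over all alternatives). A second Acly probe gave 0.08 and -0.10, and 2 of the 3 further Acaca probes gave 0.20 and 0.38 at step 4 and 0.14 and 0.21 at step 5. The remaining Acaca probe, which covers almost the same bases as the used one, gave 0.77 and 0.72. The size of these changes thus depended on the probe. Elovl6, an elongase, had differences of 0.37 and 0.07 that did not pass.

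Lpl, the lipase that frees fatty acids from lipoproteins, is singled out after its values were seen. Its log2 ratio was 1.12, 0.96 and 0.58 in step 4 enriched cells, against 1.05, 1.56 and 1.50 in step 4 control cells, and 4.40, 3.30 and 2.69 in step 5 enriched cells, against 2.36, 2.32 and 2.27 in step 5 control cells. The step 4 groups overlapped (difference -0.49, limma adjusted p = 0.323), and step 5 enriched arrays lay above the step 5 control arrays (difference 1.15, SE 0.35, limma adjusted p = 0.0242). The call at step 5 was lost without any 1 of the 3 step 5 control arrays, with the difference between 1.12 and 1.17, and a second Lpl probe gave -0.21 and 0.54.

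Between the steps, more lipid synthesis genes were lower than higher in enriched cells at step 5. In step 5 enriched cells 6 of the 33 genes were lower than in step 4 enriched cells and Lpl was higher, the 6 being 2 of 10 genes from squalene onward, 3 of 7 of control, transport and export, and Fasn. Among all genes 6.42% passed, 3.93% as higher and 2.49% as lower. The median log2 difference was -0.72 over the 33 genes and 0.00 over all genes. The step 5 enriched arrays lay above all step 4 enriched arrays for 1 of the 33 genes and below them for 16, against 14.4% of all genes each way. Within slides 1, 2 and 3 the step 5 enriched array was above the step 4 enriched array for 13, 4 and 5 of the 33 genes, with medians of -0.13, -0.69 and -1.30, so slide 1 lay nearest to 0. Lpl was 2.58 higher (SE 0.35, limma adjusted p = 0.00371). Stard4 had a difference of -1.80 (SE 0.25, limma adjusted p = 0.00399), and Fasn had -1.75 (SE 0.37, limma adjusted p = 0.0223). Lss had -1.75, -1.75 and -1.82 in step 5 enriched cells, against -0.56, -0.42 and 0.74 in step 4 enriched cells, so that the groups did not overlap (difference -1.70, SE 0.28, limma adjusted p = 0.00884). Insig1 had a difference of -1.60 (limma adjusted p = 0.0230), Nsdhl of -1.07 (limma adjusted p = 0.0348) and Srebf1 of -0.71 (limma adjusted p = 0.0418). With the slides as a block Acat2 (-0.87) and Tm7sf2 (-1.14) passed as well (limma adjusted p = 0.0234 and 0.0395; 0.0204 to 0.261 and 0.00979 to 0.393 over all alternatives). Step 5 control cells gave -1.28, -1.41 and -1.58 for Lss, so that Lss, like Insig1, was low in both kinds of step 5 cell.

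The count of 7 rested on few arrays. It was 0 without the arrays of slide 2, 3 without step 4 enriched replicate 2 or step 5 enriched replicate 3, 4 without step 4 enriched replicate 3 or step 5 enriched replicate 2, and 12 without step 4 enriched replicate 1. Lss, Stard4 and Lpl passed with each array left out in turn. Insig1 lost its call without step 4 enriched replicate 2 or step 5 enriched replicate 1 or 3 (-1.94 to -1.20 over all alternatives), and Fasn without replicate 2 or 3 of either enriched group (-2.10 to -1.41). Nsdhl and Srebf1 lost theirs without 7 and 9 of the 12 arrays (-1.37 to -0.77 and -0.89 to -0.57). In the same comparison 4 of 6 astrocyte markers and 2 of 6 oligodendrocyte markers were higher in step 5 enriched cells, and 0 of 8 neuronal and 0 of 8 precursor markers passed. Their part in the result was not tested.

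**Figure D3:**
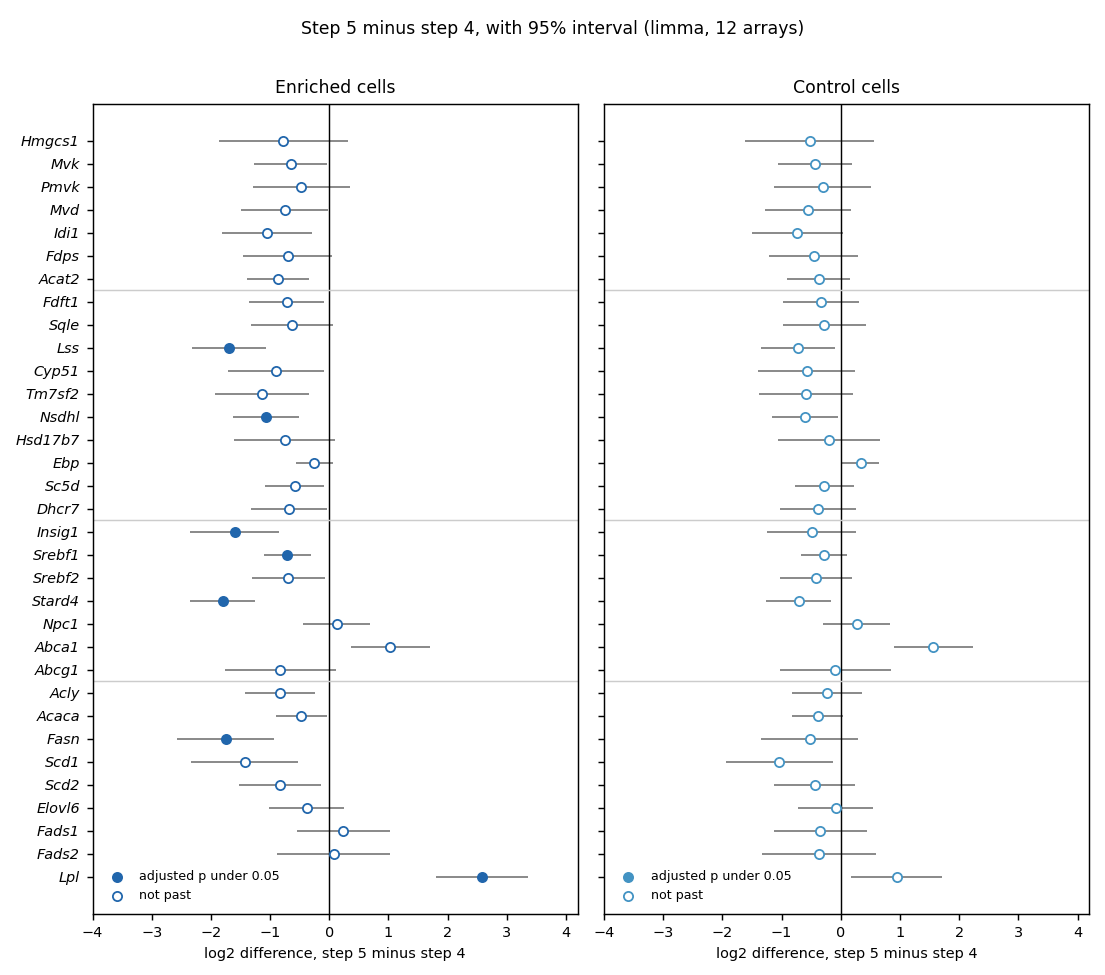
Log2 difference between step 5 and step 4 for the 33 genes in enriched cells (left) and control cells (right), with 95% intervals from limma. In enriched cells Lpl lies to the right and 6 filled points lie to the left of 0; in control cells no point is filled, with Abca1 farthest to the right.

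In control cells 0 of the 33 genes and 0 of all genes passed between step 5 and step 4 (limma), with 7 of the 33 and 1917 of all genes (8.59%) at an unadjusted p under 0.05. The median difference was -0.38 over the 33 genes and 0.01 over all genes. Abca1 was farthest from 0, at 1.56 (SE 0.30, limma adjusted p = 0.147), with step 5 control arrays all above step 4 control arrays, and it passed without step 5 control replicate 2. Such a separation upward held for 7.33% of all genes. The lower values included Scd1 at -1.04, Lss at -0.73 and Stard4 at -0.72, none of them past the threshold. The enriched arrays of each step share these control arrays as their comparison.

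The difference between the enrichment effects, step 5 minus step 4, was tested directly. It passed for 0 of the 33 genes and 0 of all genes (limma), with 6 of the 33 and 1574 of all genes (7.05%) at an unadjusted p under 0.05. Lpl had 1.63 (95% interval 0.54 to 2.73, limma adjusted p = 0.451), Fasn -1.22 (-2.38 to -0.07, 0.676), Insig1 -1.11 (-2.17 to -0.04, 0.686) and Stard4 -1.09 (-1.87 to -0.31, 0.501). A gene past the threshold at 1 step and not at the other was therefore not shown to differ in its enrichment effect between steps. For Scd2 and Abca1 the interval ran from -1.36 to 0.59 and from -1.48 to 0.41.

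Replicates of a group differed more in these genes than in most, in a comparison not matched for brightness. All 33 probes were well above background on all 12 arrays, while the genes tested needed this in 1 group only. The median SD within step 4 enriched cells was 0.57 over the 33 genes and 0.17 over all genes, and within step 4 control, step 5 enriched and step 5 control cells it was 0.36, 0.25 and 0.27, against 0.18, 0.17 and 0.21 over all genes. In step 4 cells most sterol enzymes shared their highest and lowest arrays. Of the 17 sterol enzymes 15 had their highest step 4 enriched value in replicate 3 and 15 their lowest in replicate 1, while over all genes those replicates were highest in 33.4% and lowest in 39.7%. In step 4 control cells 15 of the 17 were highest in replicate 3 and 14 lowest in replicate 2, against 34.6% and 39.6% over all genes. In step 5 enriched cells 12 of the 17 were highest in replicate 1 and 9 lowest in replicate 3, against 33.8% and 33.8% over all genes, and in step 5 control cells 11 were highest in replicate 1 and 9 lowest in replicate 2, against 32.7% and 46.1%. Fasn, Scd1 and Scd2 kept the same order among the step 4 enriched arrays. The neuronal marker list, with medians of 1.93 to 4.25 on step 4 enriched arrays and 0.50 to 2.71 on step 4 control arrays, was lowest on step 4 enriched replicate 1 and step 4 control replicate 2. The precursor list, at 3.597 and 1.69 there, and the astrocyte list, at 1.04 and 0.12, were lowest of their groups on the same 2 arrays. The part of these lists in the spread was not tested.

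**Figure D4:**
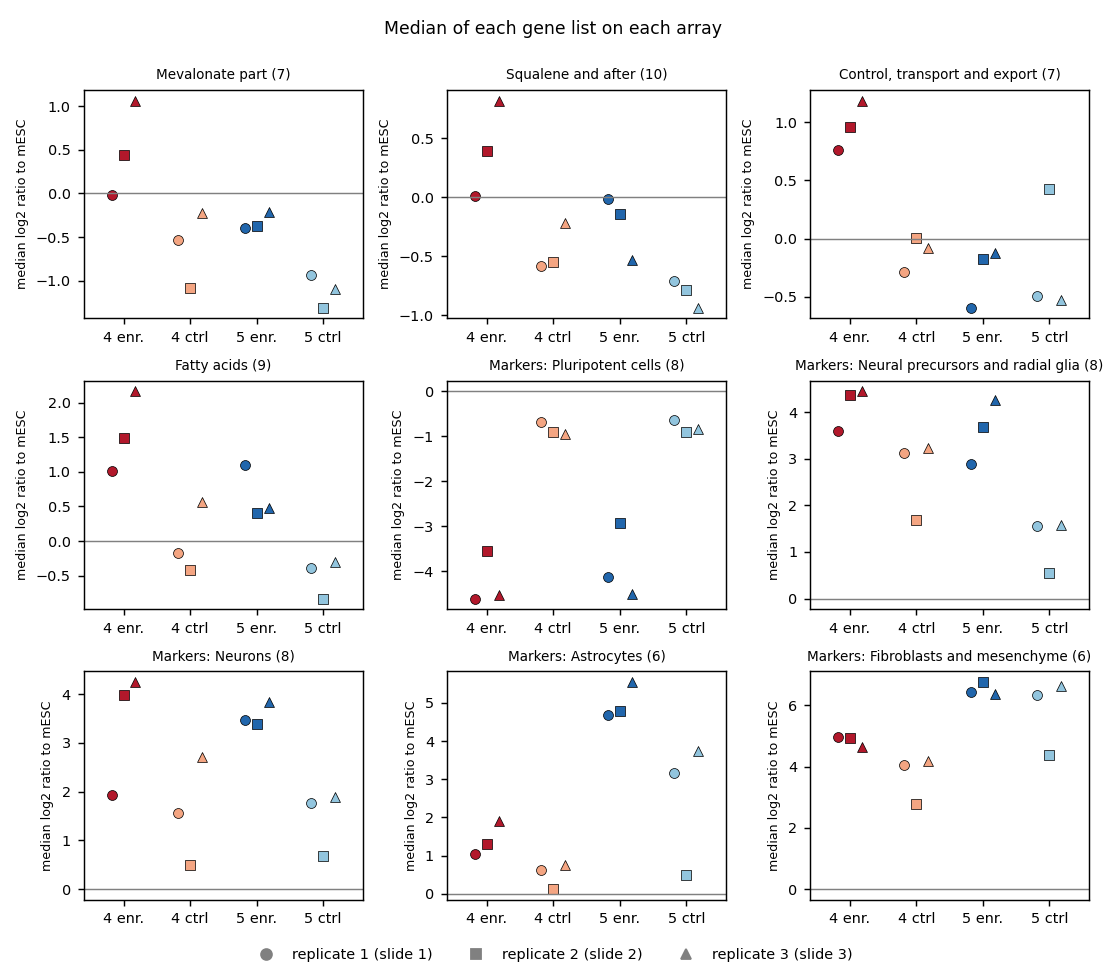
Median log2 ratio to mESC on each of the 12 arrays, for the 4 role groups and for 5 lists of cell type markers, with the number of genes in brackets and 1 symbol per replicate. Step 4 enriched replicate 1 and step 4 control replicate 2 lie lowest of their groups in the mevalonate part, in fatty acids and in the precursor, neuronal and astrocyte lists, and the pluripotency list separates enriched from control arrays.

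Set against mESC, the 33 genes were mostly higher in step 4 enriched cells, with 21 higher and Elovl6 lower, while 66.9% of all genes passed (35.4% higher, 31.5% lower). The reference was the same mESC RNA on every array, so the spread among mESC samples is left out of these tests. In step 4 control cells 4 were higher and 10 lower (38.9% of all genes, 21.4% higher, 17.4% lower). In step 5 enriched cells 9 were higher and 10 lower (71.4% of all genes, 38.3% higher, 33.1% lower), and in step 5 control cells 3 were higher and 19 lower (44.6% of all genes, 25.6% higher, 19.0% lower). The median log2 ratio over the 33 genes ranged from 0.16 to 1.08 on step 4 enriched arrays, -0.54 to -0.08 on step 4 control arrays, -0.17 to 0.03 on step 5 enriched arrays and -0.78 to -0.60 on step 5 control arrays. In step 5 enriched cells both directions occurred in each role. Of the 17 sterol enzymes, 2 were higher (Hmgcs1 and Sc5d) and 6 lower (Mvd, Idi1, Fdps, Fdft1, Lss and Dhcr7). Of the 7 genes of control, transport and export, 2 were higher (Srebf1 and Abca1) and 3 lower (Insig1, Srebf2 and Stard4). Of the 9 fatty acid genes, 5 were higher (Scd1, Scd2, Fads1, Fads2 and Lpl) and 1 lower (Elovl6). Whether the split depends on the role was not tested.

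These positions against mESC depended on the scaling of the arrays. With each array centred on its median in place of loess, the median of all genes lay between 0.30 and 0.42, against 0.03 to 0.05 with loess, and the split of the 33 genes became 8 higher and 1 lower in step 4 control cells, 15 and 2 in step 5 enriched cells, and 7 and 11 in step 5 control cells. With the scanner software's log ratio it was 7 higher and 14 lower in step 5 enriched cells. The enrichment comparisons moved less: under median centring the median of all genes was 0.13 at both steps, the 33 genes split into 23 higher and 0 lower at step 4 and 18 and 0 at step 5, and the share of all called genes that were higher was 65.0% and 66.1%, against 48.2% and 50.2% with loess. Without step 4 control replicate 1 or 2 the count against mESC in step 4 control cells was 6 in place of 14, and without slide 2 it was 4. In step 4 enriched cells it was 14 in place of 22 without step 4 enriched replicate 2, and in step 5 control cells 14 in place of 22 without slide 2.

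Of 30 further genes of sterol and fatty acid metabolism, listed for their roles, 11 were higher and 2 lower in enriched than in control cells at step 4, and 10 higher and 2 lower at step 5. Among all genes 31.2% passed at step 4 and 40.4% at step 5, so at step 5 the list passed about as often as all genes. The highest differences belonged to Fabp5, a fatty acid binding protein, with 2.21 and 2.30 (limma adjusted p = 0.00467 and 0.00242), and to Acss2, which makes acetyl-CoA from acetate, with 2.18 at step 4 (limma adjusted p = 0.00832). Acss2 had 0.70, 1.41 and 3.104 in step 4 enriched cells, against -0.65, -0.76 and 0.08 in step 4 control cells, again highest in replicate 3 and lowest in replicate 1 of the enriched arrays. Fabp7, the fatty acid binding protein of radial glia, differed by 1.15 and 1.13 (limma adjusted p = 0.0289 and 0.0239). Hacd3 and Tecr, which work in the elongation of very long chains, differed by 1.05 and 1.49 and by 1.07 and 1.14, and Msmo1, a sterol oxidase that acts with Nsdhl, by 1.31 at step 4. Lpin1, a phosphatidate phosphatase, was 1.02 higher at step 4, and Acat1, the mitochondrial thiolase, and Me1, the malic enzyme that supplies NADPH, were 1.21 and 1.09 higher at step 5.

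Both genes that fell in this list did so at both steps. Acacb, the carboxylase at mitochondria whose product restrains fatty acid oxidation, had -3.28, -3.04 and -3.27 in step 4 enriched cells, against -0.84, -1.32 and -1.20 in step 4 control cells (difference -2.07, limma adjusted p = 8.95e-05), and differed by -1.61 at step 5 (limma adjusted p = 0.000163). Mlxipl, which encodes the glucose-responsive factor ChREBP, differed by -0.70 and -1.26 (limma adjusted p = 0.0307 and 0.00133). Nr1h3, which encodes LXR alpha, had 1.88, 1.81 and 1.66 in step 5 enriched cells, against 0.84, 0.20 and 0.31 in step 5 control cells and 0.11, 0.08 and 0.19 in step 4 enriched cells. It was 1.33 higher than in step 5 control cells (limma adjusted p = 0.000496) and 1.66 higher than in step 4 enriched cells (limma adjusted p = 0.00186). Me1 (1.45) and Stard3 (-0.70), a sterol carrier of late endosomes, also passed between step 5 and step 4 enriched cells, and are named after their values were seen.

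The probes lie on mm9, per the file headers, at chr19:44381024-44381083 for Scd2, chr19:44469387-44469446 for Scd1, chr4:53043944-53044003 for Abca1, chr11:60012664-60012723 for Srebf1, chr11:120667666-120667725 for Fasn and chr19:6062882-6062941 for Tm7sf2. The headers place the Hmgcs1 probe on an unplaced piece of chromosome 13. The arrays' annotation does not say which exon or untranslated region a probe reads. All 33 probes were well above background in both channels on all 12 arrays and saturated on 0, so the differences above are measured on both sides.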

How the data were processed

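RNA of 12 samples was hybridised on 2-colour Agilent mouse arrays, sample in Cy5 and mESC reference in Cy3, with no dye swap. The deposited scanner files hold each spot's mean signal and local background as intensity and a log10 ratio of Cy5 over Cy3 that the software background-subtracted and dye-normalized, per the file headers. The deposited table is in log2; its values equalled the scanner ratio, averaged over spots, to 0.001 for 99.4 to 99.5% of probes on an array.

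From the intensities, limma 3.58.1 (R 4.3.3, data.table version 1.17.8) corrected background by normexp with an offset of 50 and normalized each array by loess. The 1377 control spots were left out of the loess fit, while spots marked as outliers entered it. On each array 128 to 298 such outliers were left out when the spots of a probe were averaged. The brightest probe stood for a gene. Probes entered if 1 or more groups had Cy5 well above background on their 3 arrays, which gave 22321 genes; for ratios to mESC, Cy3 well above background on the 12 arrays sufficed too, which gave 22451. Of 39429 probes, 9738 had no gene name in the RefSeq table. Each of these that entered was counted as a gene of its own, so the values over all genes include unnamed probes. Cy5 was well above background on 25605 to 29078 probes per array; the number of arrays limits the precision. All 12 arrays entered 1 linear model on 4 group means with eBayes, two-sided tests and Benjamini-Hochberg adjustment over all genes, at 0.05. Arrays with the same replicate number share a slide. Their deviations from group means correlated at 0.13 to 0.643 (step 4 enriched and control), 0.188 to 0.361 (step 5), 0.341 to 0.413 (enriched, both steps) and 0.463 to 0.747 (control). The main fit leaves this pairing out, and the p-values given are unpaired unless the block is named. A fit with the replicate number as a block is among the alternatives. On simulated ratios for step 4 over 22321 genes, 67 of 100 genes changed by 1 and 88 of 100 changed by 2 on the log2 scale were called, with 5 false calls. Only 200 genes were changed there, while 6953 were called at step 4 in the data, so the p-value needed to pass differs. The lipid genes also varied more, with a median SD of 0.57 in step 4 enriched cells, against 0.17 over all genes. The simulated rates are therefore not shown to hold for the lipid genes. The members and lists were chosen with earlier results of these data known. Array values are given for members past the threshold in either enrichment comparison, up to 4 per role group by size, and for Srebf1, Srebf2 and Insig1, and outside this rule for Ebp, Lpl and Lss, chosen after their values were seen; of 30 related genes those past it there with a difference of at least 1 are named. Values of 1 of the related genes are not reported here. Alternatives covered background, scaling, probe choice, filter, slide and each array left out.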

Additional observations from a re-analysis of the deposited data

How the results depend on the processing

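Of 6501 values of single genes under the alternatives, 6075 kept their direction and side of the threshold, 300 were no longer past it, 119 newly passed and 7 turned their direction. For each of the 297 results, the value under Aquantile scaling was bound to be the same. Size and direction were also bound to stay when an array of a group not compared was left out. The same holds for the replicate block, for only the arrays of the groups compared and for the filter settings. Only the p-value could change there, so the number that kept direction was partly fixed in advance. The 7 values that turned were all ratios to mESC with each array centred on its median: Lss 0.57 and Fdft1 0.57 in step 4 enriched cells, Ebp 0.48 and Acaca 0.12 in step 4 control cells, and Stard4 0.039, Acaca 0.49 and Mvk 0.44 in step 5 enriched cells. The cause was not tested. A further 119 sign changes concerned values past the threshold under neither setting.

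The count of the 33 genes past the threshold moved by over 1.5 times as follows. Without the arrays of slide 2 it was 5 for enriched against control cells at step 4 (19 otherwise), 7 at step 5 (14), 0 for step 5 against step 4 enriched cells (7), 4 for step 4 control cells against mESC (14) and 14 for step 5 control cells against mESC (22); fewer samples enter these fits. With only the arrays of the groups compared it was 4 for step 5 against step 4 enriched cells, and with median centring 9 for step 4 control cells against mESC. Leaving out each array in turn gave 9 to 25 at step 4, 10 to 17 at step 5, 3 to 12 for step 5 against step 4 enriched cells, 0 to 1 for step 5 against step 4 control cells and 0 to 0 for the difference of enrichment effects; against mESC it gave 14 to 24 and 6 to 17 for step 4 enriched and control cells and 16 to 22 and 15 to 23 for step 5 enriched and control cells. Over all genes, step 5 against step 4 enriched cells gave 1432 calls, 2441 with the replicate block and 310 without slide 2, and step 4 enriched against control cells 6953, and 3018 without slide 2.

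With the replicate block the counts of the 33 genes were 22 at step 4, 15 at step 5 and 9 for step 5 against step 4 enriched cells. Beside the calls given with their genes, the block changed calls only against mESC, where it added Srebf2 and Npc1 in step 4 enriched cells, Acat2, Nsdhl and Ebp in step 5 enriched cells and Acly in step 5 control cells. Aquantile scaling leaves the ratios as they are and says nothing about stability. With 3 arrays a group and no dye swap, a dye effect of a probe stays in every ratio to mESC and cancels between groups.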
